A study of Mus musculus with 3 samples.

Results

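Semaphorins and plexins were followed as a ligand and receptor family in single-nucleus RNA sequencing (snRNA-seq) of mouse brown adipose tissue (BAT). The members are 9 genes named with earlier results of these data known, namely the semaphorins Sema3a, Sema3c, Sema3d, Sema3g, Sema6a and Sema7a and the plexins Plxna2, Plxna4 and Plxnd1. They are 9 of the 29 semaphorin and plexin genes and of the 25154 genes listed in the deposited tables, and all 9 were present in each of the 3 libraries. Their levels were read in every nucleus type that could be named from marker genes.

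There was 1 library per condition, all from interscapular BAT of adult WT C57Bl6 mice (C57BL/6J in the study's methods, which give them as male and 8 weeks old). The first came from non-treated mice (20 mice), and the second is labelled as sham operation. The third came from denervated BAT taken 3 days after the left intercostal nerves had been cut (20 mice). For the sham library, the number of mice and the interval after surgery were not given in the sources used here. The study's legends use the term sham for the intact side of denervated mice and for a separate group. Which of these the sham library came from is not given. A legend of the study for denervated mice also names tamoxifen. Nuclei came from the floating layer of digested tissue, which holds brown adipocytes (BAs) and fragments of vessels, so the share of each cell type reflects this layer and not the whole tissue. With 1 library of pooled mice per condition, condition and library cannot be told apart, no test across mice was possible, and all 95% intervals below cover counting error only.

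Semaphorins are guidance signals that were first studied in growing axons and that also steer vessel growth. Class 3 semaphorins are secreted and act through plexins together with the co-receptors neuropilin 1 and neuropilin 2 (Nrp1, Nrp2), whereas Sema6a spans the membrane and Sema7a is held at the cell surface by a lipid anchor. Plexins are the signalling receptors: Plxna2 and Plxna4 bind Sema6a and, with neuropilins, class 3 ligands, and Plxnd1 is known as the plexin of endothelium. In adipose tissue, these signals could pass among endothelial cells (ECs), mural cells, adipocytes and sympathetic nerves.

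The untreated library held 13707 barcodes, the sham one 15368 and the denervated one 15822, with medians of 859, 781 and 428 unique molecular identifiers (UMIs). After filters on detected genes, mitochondrial UMIs and doublets, 9870, 10980 and 9465 nuclei remained. The denervated library was the shallowest, and the sham library had the highest mitochondrial share (12.9% of UMIs, against 6.71% and 2.95%). Between 251 and 278 barcodes were shared by each pair of libraries and 5 by all 3. Levels are given as CPM (the UMIs of a gene per 1000000 UMIs of all nuclei of a class), in the order untreated, sham, denervated.

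Endothelial-like nuclei numbered 4345, 4682 and 2427, BA-like nuclei 4578, 3391 and 4968, white adipocyte-like nuclei 143, 945 and 895, and mural-like nuclei (pericytes and smooth muscle) 614, 1589 and 793. Smaller classes were fibroblast-like (26, 38 and 75), immune-like (69, 70 and 260) and Schwann-like (29, 131 and 43). All 12 endothelial markers were detected in the endothelial-like nuclei of each library. Arterial-like nuclei numbered 231, 236 and 40, and venous-like nuclei 55, 128 and 103. The remaining endothelial-like nuclei (4059, 4318 and 2284) are called other endothelial. Of 8 capillary markers, 7 reached at least 3 UMIs there, with Mfsd2a at 0. These nuclei were grouped as the remainder and not by those markers. In the denervated library, 1663 of them formed a sub-cluster whose leading genes included Eda, Acss2 and Lncbate1. Lncbate1 was also a leading gene of the largest untreated adipocyte cluster. The other 621 had Rgs5, Fos and mitochondrial genes among their leading genes. Adipocyte RNA was also counted in endothelial-like nuclei: their summed level of 8 adipocyte markers was 22.4%, 19.3% and 39.8% of that in BA-like nuclei. Where sub-clusters above 25% instead of 50% of another class's marker level were left out, 143 denervated endothelial-like nuclei remained, all arterial- or venous-like. In the other direction, the 12 endothelial markers in BA-like nuclei reached 2.17%, 2.79% and 2.62% of their endothelial level.

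The 9 genes are protein-coding (GENCODE annotation of GRCm38). Sema3d, Sema3a and Sema3c all lie on the plus strand of chromosome 5, at chr5:12383385-12588948, chr5:13125414-13602565 and chr5:17574281-17730268. Sema3g lies at chr14:31217860-31230352 (plus strand) and Sema7a at chr9:57940112-57962865 (plus strand). Plxna2 lies at chr1:194618218-194816869 (plus strand), Plxna4 at chr6:32144268-32588192 (minus strand) and Plxnd1 at chr6:115954811-115995005 (minus strand). Promoter sequence was found in the RefSeq table (GRCm38.p6) for 7 of the 9 members. The 250 bases before the annotated start are shown for Sema3g, Sema7a and Plxnd1, as a secreted ligand, a membrane-anchored ligand and a receptor that were all vessel-rich, and the start used was 0 bases from the GENCODE gene start for Sema7a and Plxnd1 and 13 bases from it for Sema3g. They are Sema3g at chr14:31217623-31217872 (plus strand), Sema7a at chr9:57939862-57940111 (plus strand) and Plxnd1 at chr6:115995006-115995255 (minus strand), each written 5′ to 3′ on the strand of the gene:
Sema3g: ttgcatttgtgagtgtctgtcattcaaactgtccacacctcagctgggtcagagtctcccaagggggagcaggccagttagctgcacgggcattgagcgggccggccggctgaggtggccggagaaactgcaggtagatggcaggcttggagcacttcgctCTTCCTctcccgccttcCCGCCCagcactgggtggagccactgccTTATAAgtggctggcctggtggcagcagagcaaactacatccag
Sema7a: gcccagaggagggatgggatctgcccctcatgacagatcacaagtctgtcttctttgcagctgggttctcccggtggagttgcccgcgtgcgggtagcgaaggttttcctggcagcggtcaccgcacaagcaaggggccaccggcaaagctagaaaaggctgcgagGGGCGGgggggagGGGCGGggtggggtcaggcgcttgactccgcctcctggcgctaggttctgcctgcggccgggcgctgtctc
Plxnd1: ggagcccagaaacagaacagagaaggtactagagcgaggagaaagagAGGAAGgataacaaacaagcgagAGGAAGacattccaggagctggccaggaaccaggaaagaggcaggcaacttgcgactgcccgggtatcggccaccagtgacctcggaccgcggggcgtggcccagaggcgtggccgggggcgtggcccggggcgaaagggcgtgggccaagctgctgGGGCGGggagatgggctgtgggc
Capitals mark matches, on either strand, to AGGAAG (or its reverse complement CTTCCT), which holds the core recognised by ETS factors, to TATAA (or TTATA), the TATA box core, and to GGGCGG (or CCGCCC), the GC box.

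The 3 promoters differed in these letters. Sema3g held a TATAA match from -43 to -39 (overlapped by a TTATA match from -44 to -40), a CTTCCT match from -89 to -84 and a CCGCCC match from -72 to -67, counted from the start. Plxnd1 held AGGAAG matches from -203 to -198 and from -180 to -175 and a GGGCGG match from -23 to -18. Sema7a held GGGCGG matches only, from -84 to -79 and from -71 to -66. Among 32851 promoter windows of the same length, 29.5% held AGGAAG, 22.8% held TATAA and 32.7% held GGGCGG on either strand, so each of these matches is common. The windows and motifs were picked after the sequences had been read.

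**Figure D1:**
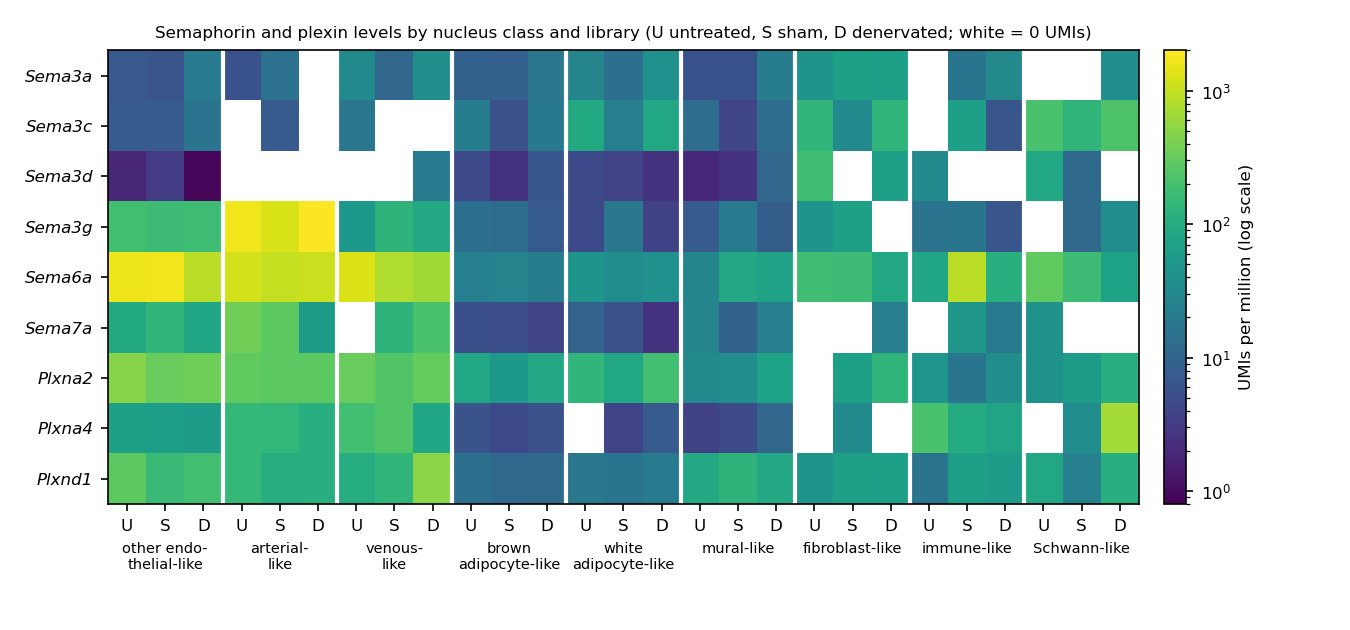
Level of each of the 9 genes (vertical axis) in each nucleus class and library (horizontal axis; U untreated, S sham, D denervated), coloured by CPM on a log scale, with white for 0 UMIs. Sema6a is bright in all endothelial groups, and Sema3g is brightest in arterial-like nuclei (1695, 1286 and 1907 CPM).

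To find which nuclei carried the members, endothelial-like and BA-like nuclei of the same library were compared. A gene was counted as higher where the CPM ratio was at least 2, its exact 95% interval lay on 1 side of no difference and the pair held at least 30 UMIs. Sema3g, Sema6a, Sema7a, Plxna2, Plxna4 and Plxnd1 were higher in endothelial-like nuclei in all 3 libraries. That is 6 of the 9, 8 and 9 members with enough UMIs, beside 18.8%, 20.5% and 15.5% of all genes so compared (12735, 11939 and 11857). The median log2 ratio of endothelial-like over BA-like was 3.67, 3.88 and 3.49 over the members and -0.28, -0.12 and -0.13 over all genes. In the opposite direction, Sema3c and Sema3d were higher in BA-like nuclei of the untreated library (27.2% of all genes were; Sema3d no longer passed under several other settings), and 0 members were higher there in the sham and denervated libraries (25.3% and 15.1% of all genes).

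Among the membrane-bound ligands, Sema6a had the widest gap between the 2 classes. Its endothelial-like level was 1594, 1616 and 881 CPM (4617, 4487 and 1092 UMIs), and its BA-like level was 23.7, 26.7 and 21.8 CPM. The log2 ratio was 6.07 [5.87, 6.29], 5.92 [5.66, 6.18] and 5.34 [5.05, 5.63]. Endothelial-like nuclei were thus high in every library, and BA-like nuclei were low and close to each other. Sema6a was found in 51.4%, 48.4% and 30.04% of endothelial-like nuclei at median depths of 625, 493 and 383 UMIs, against 4.02%, 3.48% and 2.01% of BA-like nuclei at 1823, 1382 and 891 UMIs. With each nucleus thinned to 500 UMIs, the shares were 44.9%, 45.3% and 21.9% in endothelial-like nuclei (2697, 2282 and 794 deep enough) and 1.20%, 1.32% and 1.08% in BA-like nuclei.

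Within the vessel wall, Sema6a was broad across endothelial sub-classes, although sham venous-like nuclei lay more than 2-fold below sham other endothelial nuclei. Other endothelial nuclei held 1626 (95% interval 1578 to 1675), 1678 and 899 CPM, arterial-like nuclei 1178, 1017 and 1066 CPM, and venous-like nuclei 1330, 785 and 656 CPM. Its intervals for other endothelial and arterial-like nuclei met in the denervated library alone. Mural-like nuclei, which wrap the endothelium, held only 28.4, 90.8 and 71.7 CPM. Immune-like nuclei held 81.0, 895 and 109 CPM: the sham value came from 54 UMIs in 20 of 70 nuclei, with up to 9 in 1 nucleus. In the same sham immune-like class, 11 of the 12 endothelial markers were detected at a summed 5947 CPM, against 519 CPM and 777 CPM in the untreated and denervated classes. Egfl7 was at 0 in all 3. The part of this endothelial RNA in the sham value was not tested.

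Sema7a, the lipid-anchored ligand that also signals through the integrin subunit Itgb1, was scarcer and again endothelial. Its endothelial-like level was 107, 144 and 88.8 CPM, against 5.38, 5.30 and 4.01 CPM in BA-like nuclei, and the log2 ratio was 4.32 [3.87, 4.80], 4.76 [4.18, 5.40] and 4.47 [3.77, 5.24]. The 3 libraries did not keep 1 order of vessel sub-classes. Arterial-like nuclei were highest in the untreated and sham libraries (366 and 277 CPM, against 93.0 and 137 CPM in other endothelial nuclei), and venous-like nuclei were highest in the denervated library (209 CPM, against 78.5 CPM). The denervated venous-like value came from 21 UMIs in 12 of 103 nuclei, whose leading genes included Mki67 and Top2a. It was not compared under other settings. The sham arterial-like excess was at the 2-fold limit (log2 ratio 1.01) and no longer passed it with at most 10% mitochondrial UMIs (0.62), with joint clustering (0.87), with mitochondrial genes left out of the total (0.95) or after thinning (0.98). The denervated arterial-like value rested on 1 UMI (56.1 CPM, interval 1.42 to 312). The untreated venous-like value was 0 UMIs, which allows up to 51.2 CPM at a floor of 3 UMIs.

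Sema3g, a secreted class 3 ligand known from arterial endothelium, was highest in the arterial-like nuclei. It was left out of the genes used to form and name them. The naming rules, however, were set after clusters and member values had been seen. Arterial-like nuclei held 1695 [1506, 1901], 1286 [1101, 1493] and 1907 [1320.4, 2664] CPM, from 292, 172 and 34 UMIs. Other endothelial nuclei held 186, 173 and 178 CPM, and venous-like nuclei 51.2, 129 and 89.4 CPM. The arterial-like level was thus 9.11, 7.44 and 10.7 times that of other endothelial nuclei, with log2 ratios of 3.19 [2.97, 3.40], 2.89 [2.63, 3.15] and 3.42 [2.85, 3.95]. Arterial-like and other endothelial intervals lay far apart in every library. Sema3g was found in 52.4%, 42.8% and 32.5% of arterial-like nuclei, against 9.09%, 8.29% and 6.48% of other endothelial and 2.47%, 1.504% and 0.725% of BA-like nuclei. Thinned to 500 UMIs, the arterial-like shares were 56.9%, 37.4% and 63.6%, the last from 11 nuclei only.

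**Figure D2:**
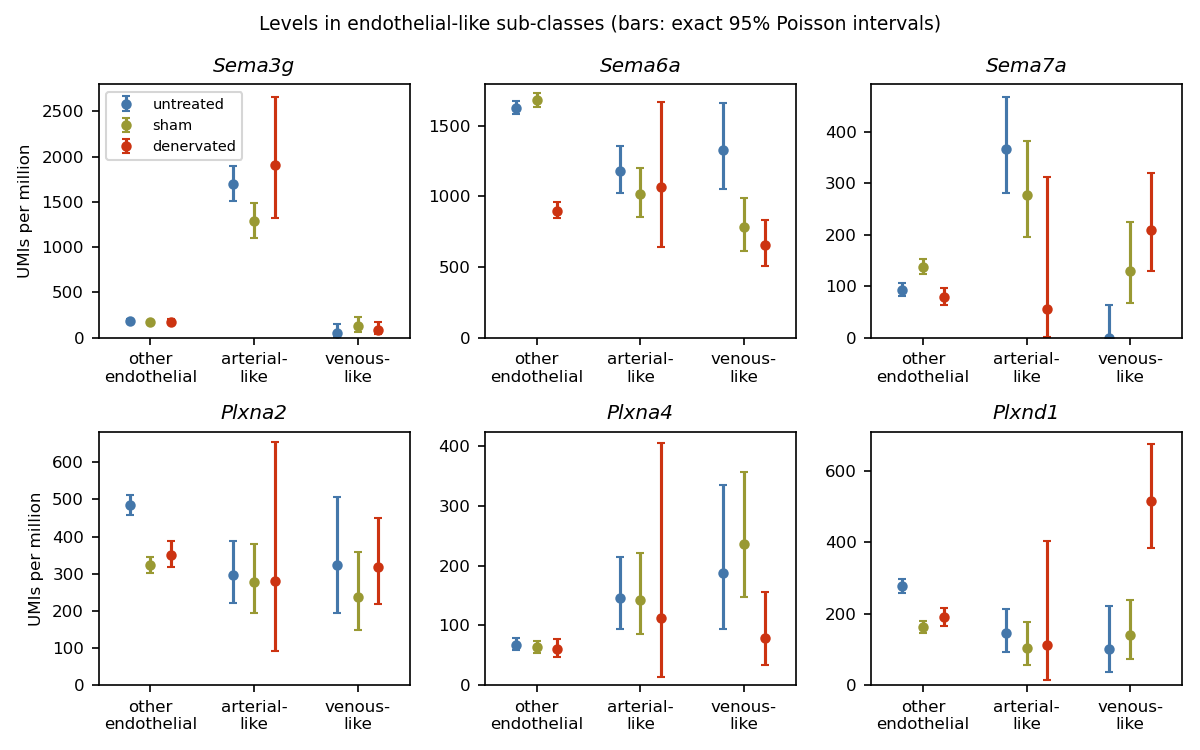
Levels of the 6 endothelial members in CPM (vertical axes, scaled for each gene) in the 3 endothelial sub-classes (horizontal axis), with 1 point per library and exact 95% Poisson intervals. The Sema3g points of arterial-like nuclei (1695, 1286 and 1907) lie far above both other sub-classes, and the Plxnd1 point of denervated venous-like nuclei (517) lies above all other Plxnd1 points.

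The plexins were endothelial as well, but to unequal degrees. Plxnd1 stood at 266, 159 and 216 CPM in endothelial-like nuclei and at 14.2, 11.5 and 11.8 CPM in BA-like nuclei (log2 ratio 4.23, 3.79 and 4.19). It was shared with the mural-like class, which held 88.8, 132 and 90.3 CPM, so that the endothelial-like over mural-like log2 ratio was 1.58 [1.16, 2.04] and 1.25 [0.74, 1.81] in the untreated and denervated libraries but 0.27 [0.01, 0.54] in the sham library. Where smooth muscle-like and pericyte-like nuclei could be separated, Plxnd1 was at 129 and 186 CPM in the former and 84.3 and 115 CPM in the latter (untreated and sham), and the log2 ratios of 0.61 and 0.69 were below 2-fold.

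By sub-class, Plxnd1 gave 278, 162 and 190 CPM in other endothelial nuclei, 145, 105 and 112 CPM in arterial-like nuclei and 102, 140 and 517 CPM in venous-like nuclei (6, 13 and 52 UMIs). The venous-like over other endothelial log2 ratio was -1.44 [-2.89, -0.31], -0.22 [-1.14, 0.57] and 1.44 [0.98, 1.89]. The denervated venous-like nuclei were therefore the high group, and their cluster was also led by Mki67 and Top2a, genes of dividing cells, and by Col15a1, Dpysl3 and Vim. The venous-like classes may not hold the same cells: in the untreated library a sub-cluster of 31 nuclei led by Apln, Dpysl3 and Vim was counted among other endothelial nuclei. This denervated ratio was -0.62 with nuclei of at most 10% mitochondrial UMIs and -0.039 with all libraries clustered together, so its direction was not stable. The untreated ratio stayed negative under 10 alternatives (-1.63 to -0.63) and met the conditions for being counted under 5 of them.

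Plxna2, a receptor for Sema6a, was the plexin with the most even spread. Endothelial-like nuclei held 470 [446, 496], 317 [297, 339] and 347 [315, 381] CPM. White adipocyte-like nuclei held 140, 83.4 and 186 CPM, BA-like nuclei 88.2, 51.3 and 89.3 CPM, and mural-like nuclei 32.1, 37.5 and 74.4 CPM. Endothelial-like nuclei were highest in each library, and the log2 ratio over BA-like nuclei was 2.42 [2.29, 2.55], 2.63 [2.42, 2.84] and 1.96 [1.76, 2.15]. Other endothelial, arterial-like and venous-like levels of Plxna2 differed by less than 2-fold in each library. It was found in 22.4%, 14.8% and 14.7% of endothelial-like and 12.8%, 5.84% and 7.61% of BA-like nuclei, and in 17.2%, 12.9% and 12.2% against 4.27%, 2.54% and 4.54% after thinning.

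Plxna4, which pairs with neuropilins on sympathetic and sensory neurons, was the scarcest of the 3 plexins in endothelial-like nuclei. The antisense genes Plxna4os1 and Plxna4os3 are listed separately, and whether the counting used strand is not given in the sources used here. It was at 74.6, 73.5 and 63.0 CPM there and at 5.85, 4.67 and 5.61 CPM in BA-like nuclei (log2 ratio 3.67, 3.98 and 3.49). Its level was higher in both named vessel sub-classes. Arterial-like nuclei held 145, 142 and 112 CPM and venous-like nuclei 188, 236 and 79.5 CPM, against 67.5, 63.9 and 60.7 CPM in other endothelial nuclei. Both ratios were past 2-fold in the untreated and sham libraries (arterial-like 1.10 and 1.15, venous-like 1.47 and 1.89 on the log2 scale), and neither was in the denervated library (0.89 and 0.39), where 2 and 8 UMIs were counted. The sham arterial-like ratio fell short of 2-fold with at most 10% mitochondrial UMIs (0.18), after thinning (0.55), with joint clustering (0.89) and without doublet removal (0.94). The untreated arterial-like ratio did so after thinning (0.91), and the untreated venous-like ratio without doublet removal (0.75) and with joint clustering (0.96). In the denervated library, the arterial-like ratio passed without doublet removal (1.52) and with joint clustering (1.45), and the venous-like ratio with at most 10% mitochondrial UMIs (1.74). Immune-like nuclei held 211, 99.4 and 77.1 CPM, and neighbouring venous-like and arterial-like values did not stand apart from them.

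The highest single Plxna4 value was in Schwann-like nuclei of the denervated library. These glia of peripheral nerves held 0 UMIs in 29 untreated nuclei (up to 128 CPM at a floor of 3 UMIs), 3 UMIs in 131 sham nuclei (36.3 CPM) and 18 UMIs in 43 denervated nuclei (669 CPM, interval 396 to 1057). The denervated UMIs were spread over 14 nuclei with at most 3 in 1 nucleus, a share of 32.6% [19.1, 48.5] against 2.97% of endothelial-like nuclei. The level stood apart from every other class of that library, with a log2 ratio of 3.41 [2.58, 4.16] over endothelial-like nuclei. Denervated over sham gave 4.202 [2.43, 6.61], from 21 UMIs in all, which is under the minimum of 30. The 2 classes may not hold the same cells: the denervated class had 6 of 8 Schwann markers at a summed 3382 CPM and was led by Tnc, Runx2 and Ngfr, whereas the untreated and sham classes had 7 and 8 markers at 12373 and 10104 CPM.

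**Figure D3:**
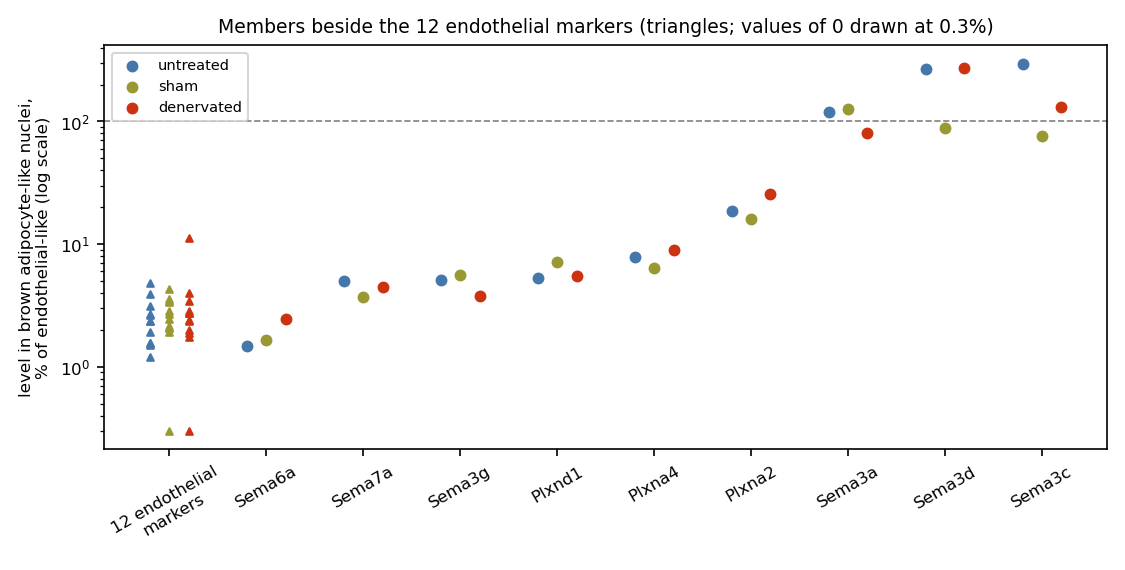
Level in BA-like nuclei as a percentage of the level in endothelial-like nuclei of the same library (log scale) for the 12 endothelial markers (triangles) and the 9 members (circles), coloured by library, with the dashed line at equal levels and marker values of 0 drawn at 0.3%. Sema6a (1.48%, 1.65% and 2.48%) lies within the marker range, Plxna2 (18.7%, 16.2% and 25.7%) lies above it, and Sema3a, Sema3c and Sema3d lie around the line.

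A low level in BA-like nuclei was next set beside the level that endothelial markers reached there. The 12 markers stood at 1.21% to 4.80%, 0% to 4.32% and 0% to 11.2% of their endothelial level (medians 2.36%, 2.59% and 2.58%). Sema6a, at 1.48%, 1.65% and 2.48%, lay inside these ranges in every library. Sema3g (5.12%, 5.66% and 3.79%), Sema7a (5.01%, 3.69% and 4.51%), Plxnd1 (5.33%, 7.21% and 5.48%) and Plxna4 (7.85%, 6.35% and 8.91%) lay above the highest marker in the untreated library. In the sham library Sema3g, Plxnd1 and Plxna4 did so and Sema7a did not. The denervated maximum was Tek alone, with Emcn next at 3.97%: Sema7a, Plxnd1 and Plxna4 lay between these markers, and Sema3g lay below both. Plxna2, at 18.7%, 16.2% and 25.7%, lay above all 12 markers in every library. Which part of these UMIs was transcribed in adipocytes was not tested.

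Sema3a, Sema3c and Sema3d, the other class 3 ligands, did not share this endothelial excess, and their low levels were spread over adipocytes, endothelial-like nuclei and small stromal classes. Between endothelial-like and BA-like nuclei only Sema3c and Sema3d in the untreated library met all 3 conditions for being counted; the denervated Sema3d log2 ratio of -1.45 [-3.80, 0.22] had an interval that included 0. The share of ambient RNA in endothelial-like UMIs was estimated from adipocyte markers and the barcodes with under 200 genes, with every such marker UMI taken as ambient. It came to 53.5%, 80.7% and 100%, the last being the cap of the estimate and not a measured share. The part of ambient RNA in the low endothelial-like levels of Sema3a, Sema3c and Sema3d was not tested. Sema3c, which acts through neuropilins on vessels and axons, stood at 21.4 [18.4, 24.8], 5.52 [3.60, 8.08] and 19.0 [15.4, 23.3] CPM in BA-like nuclei and at 93.1 [56.9, 144], 22.8 [15.3, 32.8] and 83.4 [64.7, 106] CPM in white adipocyte-like nuclei. The log2 ratio of white over brown adipocyte-like was 2.12 [1.38, 2.79], 2.05 [1.23, 2.87] and 2.13 [1.66, 2.60]. White adipocyte-like nuclei were thus about equally far above BA-like nuclei in each library, at median depths of 1341, 1156 and 826 UMIs against 1823, 1382 and 891. The leading genes of the denervated white adipocyte-like nuclei included Cxcl1, a chemokine gene. Schwann-like nuclei held 213, 133 and 223 CPM of Sema3c, from only 5, 11 and 6 UMIs, and their intervals met those of fibroblast-like nuclei.

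The sham library was the low one for Sema3c in both adipocyte classes. Sham over untreated was -1.95 [-2.61, -1.36] in BA-like and -2.03 [-2.90, -1.13] in white adipocyte-like nuclei on the log2 scale, and denervated over sham was 1.79 [1.15, 2.47] and 1.87 [1.22, 2.55]. Denervated over untreated was -0.17 [-0.54, 0.20] and -0.16 [-0.90, 0.64]. The sham level thus stood below both others, while the intervals of denervated over untreated included no difference. The sham library also differed from both others in its mitochondrial share. In BA-like nuclei, the denervated over sham log2 ratio of Sema3c was 1.59 to 1.89 under 15 alternatives and was counted under all 15. The alternatives included a stricter limit on mitochondrial UMIs and mitochondrial genes left out of the total, applied to nuclei of the same libraries. They cannot separate the mitochondrial difference from other differences between the libraries. The part of the mitochondrial difference in any of these Sema3c ratios was not tested.

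Sema3a, a repellent of sympathetic and sensory axons, was at 9.08, 8.70 and 17.6 CPM in BA-like nuclei, 27.9, 14.2 and 41.1 CPM in white adipocyte-like nuclei and 7.59, 6.84 and 21.8 CPM in endothelial-like nuclei. White adipocyte-like over BA-like log2 ratios were 1.62 [0.13, 2.81], 0.70 [-0.18, 1.54] and 1.22 [0.60, 1.81], so the sham interval included no difference. The denervated library was highest in all 3 classes. It was also highest over all nuclei (8.90, 8.60 and 21.6 CPM) and in mural-like nuclei (5.67, 5.83 and 21.3 CPM, from 3, 7 and 8 UMIs). Fibroblast-like nuclei held 45.9, 67.9 and 67.2 CPM, from 1, 2 and 3 UMIs. Sema3d had the fewest UMIs of the members over all nuclei (54, 29 and 46) and stood at 4.66, 2.55 and 6.61 CPM in BA-like nuclei (39, 12 and 33 UMIs) and 1.73, 2.88 and 2.42 CPM in endothelial-like nuclei. Fibroblast-like nuclei held 183, 0 and 67.2 CPM of Sema3d, from 4, 0 and 3 UMIs. For Sema3a and Sema3d, most neighbouring classes in the order of levels did not stand apart.

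**Figure D4:**
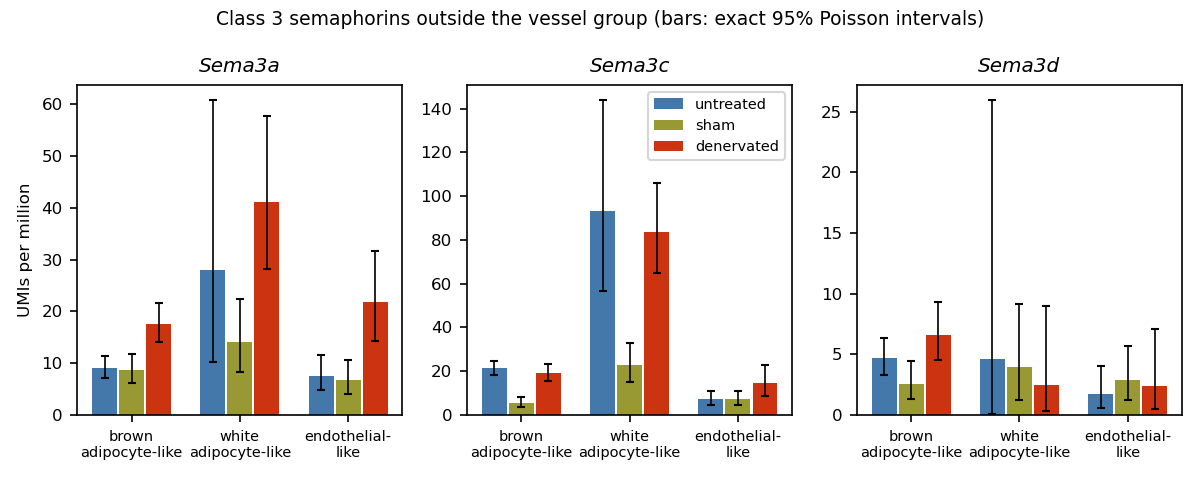
Levels of Sema3a, Sema3c and Sema3d in CPM (vertical axes from 0, scaled for each gene) in BA-like, white adipocyte-like and endothelial-like nuclei, with 1 bar per library and exact 95% Poisson intervals. White adipocyte-like Sema3c (93.1, 22.8 and 83.4) lies above BA-like Sema3c (21.4, 5.52 and 19.0) in each library.

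The denervated library was then compared with both others. With 1 library each, this describes how the libraries differed, and an effect of cutting the nerves cannot be told apart from library. A member was counted only where it differed at least 2-fold, in the same direction, from the untreated and from the sham library. In endothelial-like nuclei, Sema3a and Sema3c were higher, 2 of 8 members with enough UMIs (7.76% of 9955 genes were higher), and 0 were lower (1.68% of genes). In BA-like nuclei, 0 of 9 members were higher and 0 were lower, beside 3.69% and 0.659% of 12435 genes. The median log2 ratio of the members was -0.29 over untreated and -0.04 over sham in endothelial-like nuclei, where all genes gave 0.09 and 0.09, and -0.12 and 0.26 in BA-like nuclei, where all genes gave 0.02 and 0.06.

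Sema3a in endothelial-like nuclei rested on 22, 19 and 27 UMIs, with denervated log2 ratios of 1.52 [0.65, 2.40] over untreated and 1.67 [0.77, 2.60] over sham. Sema3c rested on 21, 20 and 18 UMIs (7.25, 7.20 and 14.5 CPM), with ratios of 1.003 [0.01, 1.98] and 1.01 [0.01, 2.01]. Both therefore rest on few UMIs, and the Sema3c ratio sits on the 2-fold limit. Neither was counted with at least 500 genes per nucleus, with at most 10% mitochondrial UMIs or with nuclei thinned to 500 UMIs, and the Sema3c ratio over untreated was -0.30 under the second of these. Sema3a kept its direction under all 14 alternatives, from 1.25 to 2.05 over untreated and from 0.79 to 2.30 over sham. The summed adipocyte-marker level in endothelial-like nuclei was also highest in the denervated library (39.8% of the BA-like level). With RNA of the other class subtracted, Sema3a was still counted as higher and Sema3c was not. What caused either difference was not tested. In the endothelial-like nuclei without any adipocyte-marker UMI (1379, 1637 and 956 nuclei), Sema3a was at 7.17, 6.42 and 22.5 CPM from 5, 5 and 8 UMIs, with log2 ratios of 1.65 and 1.81 that were not counted because each pair held under 30 UMIs. In BA-like nuclei, Sema3a fell on either side of the limit, with 0.96 [0.50, 1.42] over untreated and 1.02 [0.47, 1.59] over sham.

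Sema6a was the endothelial member with the lowest denervated ratio. The log2 ratio was -0.85 [-0.95, -0.76] over untreated and -0.87 [-0.97, -0.78] over sham, so the denervated level was 0.553 and 0.545 of the others and its intervals lay short of 2-fold. After thinning to 500 UMIs it passed 2-fold against both. The endothelial markers moved with it: all 12 were below the untreated and the sham level, with ratios from 0.421 to 0.703 (median 0.652) and from 0.435 to 0.969 (median 0.707). Of these 12, 4 and 3 had a lower ratio than Sema6a. In endothelial-like nuclei without an adipocyte-marker UMI, Sema6a was at 1707, 1661 and 1208 CPM, so the denervated level was again the lowest and the gap was narrower. The part of adipocyte RNA, or of the lower marker level, in the Sema6a ratio was not tested.

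The other vessel-rich members varied less: all 5 were below the untreated library, and over sham 3 were lower and 2 higher. Over untreated, their ratios (0.715 to 0.844) lay above those of all 12 endothelial markers (0.421 to 0.703). Over sham, Plxna2 (1.09) and Plxnd1 (1.36) lay above all 12 markers, Sema3g and Plxna4 above 9, and Sema7a above 5. On the log2 scale, Plxna2 over untreated was -0.44 [-0.60, -0.28] and over sham 0.13 [-0.04, 0.30]. Plxnd1 gave -0.31 [-0.51, -0.10] and 0.44 [0.22, 0.66], Sema3g -0.48 [-0.70, -0.27] and -0.20 [-0.42, 0.01], and Plxna4 -0.24 and -0.22 with intervals that included 0. Sema7a gave -0.27 [-0.60, 0.04] and -0.69 [-1.01, -0.39], the widest gap to sham of these 5. The sign over untreated was not stable for 4 of them: it turned under 4 alternatives for Sema3g, 7 for Sema7a, 6 for Plxna4 and 8 for Plxnd1. Over sham it turned under 8 for Sema3g, 6 for Plxna4, 4 for Sema7a and 2 for Plxna2. For Plxna2 and Plxnd1, the denervated level lay between the 2 controls. This order was not stable for Plxnd1, whose denervated level was the highest under the 8 alternatives that turned the sign over untreated. Its ratio over sham was positive under all 14 (0.13 to 1.52) and past 2-fold under 4, namely at least 500 genes, at most 10% mitochondrial UMIs, the 25% limit and no adipocyte-marker UMI (247, 144 and 301 CPM). At the 25% limit, all denervated endothelial-like nuclei left were arterial- or venous-like, so unlike mixes of sub-classes were compared. With the sub-classes separated, Sema3g gave -0.07 [-0.31, 0.17] and 0.04 [-0.21, 0.28] in other endothelial and 0.17 [-0.39, 0.69] and 0.57 [-0.01, 1.11] in arterial-like nuclei, and all 4 intervals included 0. In BA-like nuclei, Sema3g was lower by less than 2-fold, at -0.92 [-1.49, -0.37] and -0.78 [-1.41, -0.17], from 117, 60 and 37 UMIs. The 12 endothelial markers in BA-like nuclei summed to 376, 396 and 279 CPM, so they were lowest in the same library. With RNA of the other class subtracted, the Sema3g ratios were -1.81 and -1.49, and it was counted as lower. What caused the difference was not tested. Plxna2 in BA-like nuclei was 0.02 [-0.15, 0.19] over untreated and 0.80 [0.57, 1.03] over sham, so the sham library was again the low one.

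**Figure D5:**
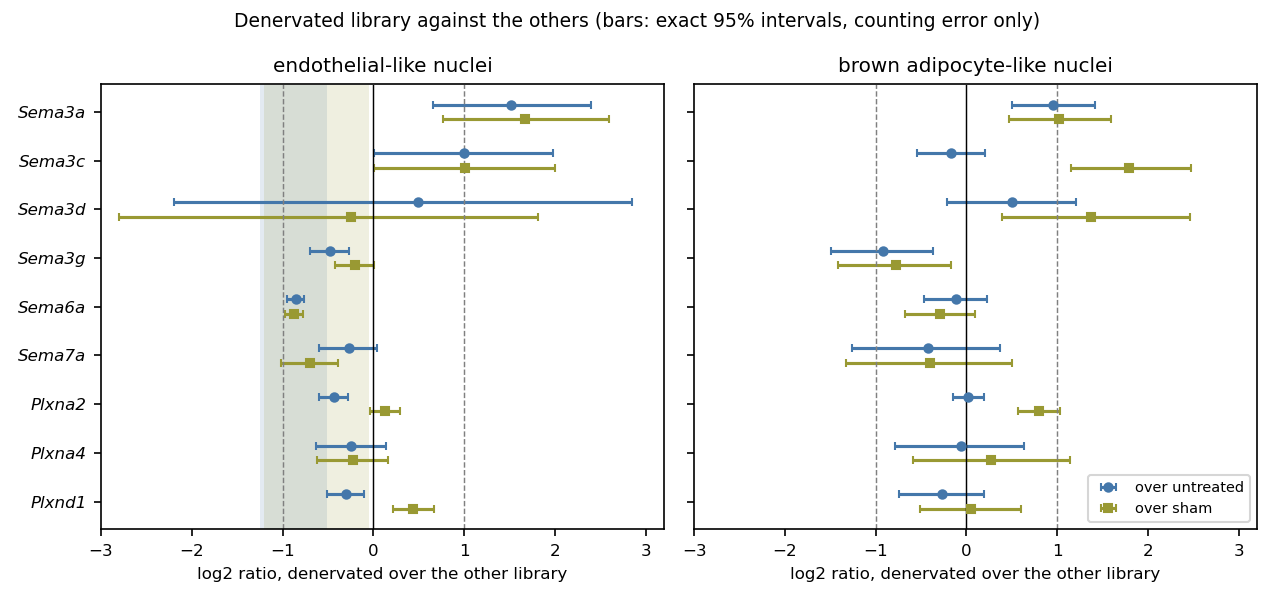
Log2 ratio of the denervated level over the untreated (circles) and sham (squares) level for the 9 members in endothelial-like (left) and BA-like nuclei (right), with exact 95% intervals, dashed lines at 2-fold, and shaded bands for the range of the 12 endothelial markers. Sema6a (-0.85 and -0.87) lies inside the marker bands, and Sema3a (1.52 and 1.67) lies beyond the 2-fold line in endothelial-like nuclei.

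The rest of the family was described from a list of 22 other semaphorins, plexins and neuropilins, of which 14, 11 and 14 had enough UMIs. Higher in endothelial-like than in BA-like nuclei were 5, 4 and 4, beside 18.8%, 20.5% and 15.5% of all genes. Higher in BA-like nuclei were 4, 3 and 2, which is close to the 27.2%, 25.3% and 15.1% of all genes. The secreted ligand Sema3f (35.9, 43.9 and 68.6 CPM against 1.31, 2.12 and 2.003 CPM) and the transmembrane ligand Sema4c (211, 163 and 197 CPM against 8.96, 6.79 and 11.0 CPM) had the largest endothelial excess. Sema4b was adipocyte-rich, with 7.25, 9.36 and 13.7 CPM in endothelial-like and 64.0, 127 and 66.7 CPM in BA-like nuclei, and so was Sema4a, with 16.6, 2.88 and 36.3 CPM against 154, 43.7 and 109 CPM. The median log2 ratio of the list was -0.13, 0.22 and 0.27, beside 3.67, 3.88 and 3.49 for the members. The members were named for earlier results of these data, so this gap is no independent result.

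The neuropilins, named here as the co-receptors of the class 3 ligands after their values were seen, were present in both classes. Nrp1 was at 1728, 1440.1 and 1483 CPM in endothelial-like and 659, 795 and 860 CPM in BA-like nuclei. Nrp2 was at 743, 582 and 843 CPM and 502, 499 and 621 CPM. Nrp2 was low where Sema3g was high: arterial-like over other endothelial log2 ratios of Nrp2 were -2.01 [-2.56, -1.52], -1.84 [-2.52, -1.24] and -1.89 [-3.77, -0.53]. Sema3f had its high point at the other end of the vessel bed, with venous-like over other endothelial ratios of 2.39 [1.28, 3.33], 2.82 [2.11, 3.48] and 1.72 [0.90, 2.48].

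Of 20 genes that relay plexin and semaphorin signals or act as partner receptors, 19 were in the tables and 15 had enough UMIs in each library. Higher in endothelial-like nuclei were 8, 9 and 9, beside the same 18.8%, 20.5% and 15.5% of all genes. Higher in BA-like nuclei were 3, 4 and 2, near or below the 27.2%, 25.3% and 15.1% of all genes. Fyn, a kinase downstream of plexin A receptors, was at 230, 191 and 201 CPM in endothelial-like and 6.93, 9.55 and 11.0 CPM in BA-like nuclei. Fes, another plexin-linked kinase, was at 39.3, 45.4 and 36.3 CPM against 3.23, 2.76 and 6.21 CPM. Met, a receptor that can associate with plexins, was adipocyte-rich (6.56, 5.76 and 37.1 CPM against 69.9, 110 and 90.9 CPM). In denervated endothelial-like nuclei, Sema4a of the family list and Dpysl3, Mical3, Rnd1 and Met of the relay list were higher than in both other libraries, 1 of 10 and 4 of 15 genes compared, beside 7.76% of all genes, and 0 were lower (1.68% of all genes). Sema4a, Mical3 and Met were among the genes higher in BA-like than in endothelial-like nuclei. The summed adipocyte-marker level in endothelial-like nuclei was highest in the denervated library (22.4%, 19.3% and 39.8% of the BA-like level). The part of adipocyte RNA in these values was not tested. In denervated BA-like nuclei, Sema5a (1 of 14) and Dpysl3 (1 of 15) were higher, beside 3.69% of all genes, and Gipc1 (1 of 15) was lower, beside 0.659%.

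The genes whose levels followed each member most closely were sought among 12831 genes over 21 points (7 classes in each of 3 libraries). The points share libraries and depth, so the Pearson r of log2(CPM + 1) is a description. Plxnd1 was closest to Ets1 (0.915), Hdac7 (0.908) and Dgkh (0.890), Sema6a to Etl4 (0.881), Arhgap31 (0.877) and Hpcal1 (0.869), and Sema3g to Card10 (0.875), Ptprb (0.853) and Yes1 (0.848). For Plxna2 these were Baz2b (0.863), Pak1ip1 (0.856) and Rgcc (0.850), for Sema7a Adora2a (0.854), Vamp5 (0.846) and Rrp7a (0.828), and for Plxna4 Oasl2 (0.849), Cd93 (0.845) and Gm49417 (0.808). Sema3a was closest to Alpk3 (0.858), Lsamp (0.842) and Asap1 (0.829), Sema3c to Gm49317 (0.855), Tenm3 (0.842) and Pcdh9 (0.795), and Sema3d to Gfpt1 (0.834), Taok1 (0.743) and Lmo4 (0.728).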

How the data were processed

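Whole-transcriptome UMI counts per gene and barcode were deposited by the authors for the 3 libraries, made with the BD Rhapsody pipeline. Per the file headers of the untreated and denervated tables, version 1.9 for nuclei and a GRCm38 reference with GENCODE genes were used. The sham table has no header, and the labels name GRCh38, which was not followed. No column of fold changes was used. The study's later removal of debris, ambient RNA and doublets is not in these counts.

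Barcodes with 200 or more detected genes, and no more than 50% of UMIs from mitochondrial genes, were taken as nuclei. Nuclei were removed as doublets (1922, 3047 and 997) where a second class's markers reached at least 3 UMIs and 25% of the leading class's marker UMIs. These markers were not wholly confined to 1 class: Lpl in endothelial-like nuclei stood at 48.2%, 29.1% and 52.1% of its BA-like level. Without this removal, endothelial-like nuclei numbered 5698, 6075 and 1467. Each library was clustered on its own (2000 variable genes, 30 components, 20 neighbours, Louvain resolution 0.5) without semaphorin, plexin, neuropilin and mitochondrial genes, and clusters and sub-clusters were named from fixed marker lists. Sub-clusters in which another class's markers reached 50% of that class's own level were left out. The naming rules and this 50% limit were set after clusters and member values had been seen, and the members and gene lists were chosen with earlier results of these data known. At 25%, denervated endothelial-like nuclei fall from 2427 to 143. UMIs were summed per class and library, with exact Poisson intervals for CPM, exact binomial (Clopper-Pearson) intervals for shares and exact conditional binomial intervals for ratios, at 95%. All 9 members are named; of other pathway genes, at most 8 per comparison past 2-fold, largest first; of like-patterned genes, 3 per member among those with at least 100 UMIs. Scripts were tested on simulated data. Python 3.11.15, numpy 2.4.6, scipy 1.17.1, scikit-learn 1.9.0, igraph 0.11.9 and pandas 2.3.3 were used.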

Additional observations from a re-analysis of the deposited data

How the results depend on the processing

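Depth limits Sema3a, Sema3c and Sema3d in endothelial-like nuclei and all members in the small classes. No paired analysis was possible because there is 1 library per condition. Sema3g, Sema6a, Sema7a, Plxna2, Plxna4 and Plxnd1 (6 members) were higher in endothelial-like than in BA-like nuclei in all 3 libraries under every alternative that gave a value. Subtraction of ambient RNA gave none for denervated endothelial-like nuclei, where the estimated ambient share reached its cap of 100% (53.5% untreated, 80.7% sham). The alternatives without arterial- and venous-like nuclei, without stress-led sub-clusters, with RNA of the other class subtracted, with a 25% limit on mixed sub-clusters and with endothelial-like nuclei lacking an adipocyte-marker UMI were chosen after seeing the data.

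Members higher in BA-like nuclei were 1 (Sema3c) instead of 2 in the untreated library with mitochondrial genes left out of the total, ratios centred on the median gene, thinning to 500 UMIs, no arterial- and venous-like nuclei, the 25% limit, or no adipocyte-marker UMI. In the denervated library they were 1 instead of 0 with at least 500 genes, resolution 1 or joint clustering (Sema3c), and without arterial- and venous-like nuclei or with RNA of the other class subtracted (Sema3d). Members higher in denervated endothelial-like nuclei were 0 instead of 2 with at least 500 genes, at most 10% mitochondrial UMIs, thinning, the 25% limit or no adipocyte-marker UMI, although the Sema3a ratios stayed between 0.79 and 2.30 under all alternatives. They were 1 (Sema3a) without doublet removal, at resolution 1, with joint clustering, mitochondrial genes left out, centred ratios, no stress-led sub-clusters or RNA of the other class subtracted. Sema6a was counted as lower there (1 instead of 0) with thinning and the 25% limit, and its log2 ratio over untreated ranged from -1.26 to -0.49. At the 25% limit, the 143 denervated endothelial-like nuclei left were all arterial- or venous-like, against 3928 untreated and 4682 sham nuclei. Ratios at this limit therefore compare unlike mixes of vessel sub-classes. In denervated BA-like nuclei, 1 member instead of 0 was higher without doublet removal (Sema3a), and 1 instead of 0 was lower with RNA of the other class subtracted (Sema3g).

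The direction turned for Sema3c in denervated over untreated endothelial-like nuclei, at -0.30 (at most 10% mitochondrial UMIs), -0.024 (resolution 1) and -0.12 (joint clustering), and over sham at -0.10 (joint clustering). It turned for Plxnd1 in denervated venous-like over other endothelial nuclei, at -0.62 (at most 10% mitochondrial UMIs) and -0.039 (joint clustering). The cause was not tested. Of the other log2 ratios under alternatives, 853 kept direction and side of the limit, 80 that passed it under neither setting changed sign, 55 no longer passed it and 24 newly passed it. Among the 80 were denervated over untreated ratios in endothelial-like nuclei (Plxnd1 from -0.31 to at most 0.76, Sema7a from -0.27 to 0.84, Plxna4 from -0.24 to 0.55, Sema3g from -0.48 to 0.39) and Sema3d in denervated endothelial-like over BA-like nuclei (from -1.45 to 1.35 at the 25% limit). These ranges include the 25% limit, at which unlike mixes of vessel sub-classes are compared.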

Other observations

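Among family genes outside the 9 members, Sema5a, a transmembrane semaphorin with thrombospondin repeats, was held by mural-like nuclei. Its mural-like level was 333, 336 and 332 CPM (untreated, sham and denervated), against 8.28, 16.9 and 29.1 CPM in endothelial-like nuclei. The log2 ratio of endothelial-like over mural-like was -5.33 [-6.01, -4.71], -4.31 [-4.78, -3.88] and -3.51 [-4.09, -2.97]. The mural-like level was thus close to equal in the 3 libraries. In BA-like nuclei Sema5a was at 11.0, 15.1 and 30.2 CPM, with denervated log2 ratios of 1.46 over untreated and 1.01 over sham.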
